A study of Mus musculus with 16 samples.

Results

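Among CD4+ IL-4eGFP+ cells of the mediastinal (medLN) and mesenteric (MLN) lymph nodes, 774 of 8172 cells assigned to a mouse and node carried UMIs (unique molecular identifiers, 1 per captured RNA molecule) of the follicular helper genes Cxcr5 and Bcl6 or Il21. A cell was counted as follicular helper-like if it had at least 1 Cxcr5 UMI and at least 1 UMI of Bcl6 or Il21. The 3 genes were read from the same cells that are described, so their own levels are given only as a description of the choice. The series held 26002 deposited cell barcodes, and 9385 of the 9603 in this IL-4eGFP+ library were kept for their number of UMIs and genes and their low mitochondrial share.

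The cells came from 2 IL-4eGFP reporter (4get) mice, 10 weeks old, on day 10 after subcutaneous injection of 500 third-stage larvae of the nematode Nippostrongylus brasiliensis (Nb), with antibiotics in the drinking water for the first 5 days. All mice of the series carried the reporter and were infected, so no naive animal entered a comparison. In 4get mice GFP follows transcription of the Il4 locus and marks cells that are able to make IL-4, which includes cells other than conventional Th2 cells. The 4 node samples (medLN and MLN of mouse 1 and of mouse 2) were each tagged with a hashtag antibody and sorted by GFP. The IL-4eGFP+ cells of all 4 were then pooled into one library and the IL-4eGFP- cells into another. Gate and library therefore cannot be told apart, and with 2 mice per node the p-values rest on the spread between 4 samples.

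Follicular helper T cells (Tfh) are CD4+ T cells that help B cells in lymphoid follicles and germinal centres. CXCR5 is the receptor for CXCL13 and guides them into the follicle, BCL6 is the transcription factor that sets up the lineage and represses other helper fates, and IL-21 is a cytokine through which they act on B cells. In type 2 immune responses Tfh cells of the lymph node are also known for making IL-4, whereas IL-13 and IL-5 are made mainly by Th2 effector cells.

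Each cell was given to its node by the short barcode of its hashtag antibody, and these barcodes are shown because every comparison between nodes rests on them. Capitals mark bases that no other of the 4 barcodes has at that position, read 5′ to 3′.
medLN 1: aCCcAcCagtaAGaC
medLN 2: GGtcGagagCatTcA
MLN 1: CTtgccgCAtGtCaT
MLN 2: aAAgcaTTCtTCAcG
Any pair of barcodes differed at 11 or more of the 15 bases. The top hashtag held a median of 98.3% of a member's hashtag UMIs, against the required 80%. At that limit, 10 cells lay just inside (80 to 85%) and 13 cells that met the gene rule lay just outside (75 to 80%). The 2 libraries shared 155 cell barcode sequences, and 8 members carried one of them.

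Bcl6 chose most of the cells. Of the 774 members, 490 had Cxcr5 and Bcl6 without Il21, 144 had Cxcr5 and Il21 without Bcl6, and 140 had all 3 genes. The summed level of Cxcr5 (chr9:44511787-44561877, minus strand, GRCm38) was 355, 324, 379 and 299.9 CPM (UMIs scaled to 1e6 per sum) in medLN 1, medLN 2, MLN 1 and MLN 2, the order kept throughout. That of Bcl6 (chr16:23965052-23988852, minus strand) was 261, 260.3, 290.3 and 213 CPM, and that of Il21 (chr3:37222759-37232636, minus strand) was 168, 118, 120.5 and 132 CPM. All 3 genes were at similar levels in the 4 samples, and by construction they were 0 in the 5356 triple-negative cells used for comparison. The rule is a low one in UMIs: 222 members had exactly 1 Cxcr5 UMI and 1 UMI of Bcl6 and Il21 together, and 363 had 2 or more Cxcr5 UMIs. Just outside it, 273 cells had 2 or more Cxcr5 UMIs but neither of the other genes, and 1056 cells had Bcl6 or Il21 UMIs but none of Cxcr5.

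The Bcl6 gene has a second annotated start within the gene body, and the 300 bases around it (250 before, 50 after, GRCm38.p6, RefSeq) are shown because they hold the motif TTCNNNGAA 3 times. This motif is the core bound by STAT factors, which carry the signals of IL-6, IL-21 and IL-2, and it reads the same on both strands. Capitals mark the motif in the window chr16:23981234-23981533, minus strand.
Bcl6: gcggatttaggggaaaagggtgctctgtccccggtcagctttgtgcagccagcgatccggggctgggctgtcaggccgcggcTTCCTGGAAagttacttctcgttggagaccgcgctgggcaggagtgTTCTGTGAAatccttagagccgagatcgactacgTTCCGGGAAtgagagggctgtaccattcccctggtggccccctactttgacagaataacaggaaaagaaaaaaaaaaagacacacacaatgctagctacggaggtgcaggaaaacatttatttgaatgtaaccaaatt
The window was chosen for its copies, and 11 of all 32851 windows of this length (0.0335%) held 3 or more. The window at the first start of Bcl6 held 1. At least 1 copy stood in 8.3% of all windows, in 6.73% of windows of the genes tested, and in 6.54% and 7.61% of windows of genes that were higher and lower in the members. The Il21 window held none, and a match is a description of letters, not a binding site.

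The cells were T cells by their defining markers. Cd3e, a chain of the T cell receptor complex, was detected in 766 of 774 members (99%), and the 5 T cell markers summed to 4293 ± 309 CPM (SD, n = 4) against 3433 ± 62.9 CPM in triple-negative cells. The 4 basophil and mast cell markers were at 0 in every sample of the members. Markers of innate-like cells and NKT cells, which the reporter also labels, summed to 49.6 ± 22.6 CPM in members and 336 ± 328 CPM in triple-negative cells, with Zbtb16 detected in 0.258% of members. The 11 B cell markers summed to 305 ± 81.5 CPM against 542 ± 149 CPM. Cells with UMIs of 2 or more of these genes were nevertheless more frequent among members, at 97 of 774 (12.5%, exact 95% interval 10.3 to 15.1%) against 419 of 5356 triple-negative cells (7.82%, 7.12 to 8.57%), which are the shallower cells. Ighm was the most abundant of them in every member sample, and Ebf1 was at 0 in all 4. Cd22 was the only B cell marker and Klrb1c the only innate-like marker that were higher in the members by the test used below, and Klrb1c did not pass without medLN 1.

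Cells meeting the rule made up 6.77, 10.1, 10.8 and 10.3% of the assigned IL-4eGFP+ cells. medLN 1 was low and the other samples lay close together. The mean was 8.42 ± 2.33% in medLN and 10.6 ± 0.319% in MLN (SD, n = 2 each). An exact two-sided permutation test gave p = 0.333, the smallest it can reach with 2 samples against 2, so this test cannot pass 0.05 here. In the IL-4eGFP- library only 20 of 8932 cells met the rule (0.224%, exact Clopper-Pearson 95% interval 0.137 to 0.346%, counting error only), with a share between 0.135 and 0.273% in the 4 samples. In each of the 4 pairs the IL-4eGFP+ share was higher, and the exact paired permutation test gave p = 0.125, the smallest it allows. Because a rule of single UMIs favours deep cells, each cell was also thinned to 2000 UMIs before the rule was applied. The shares then were 2.78, 4.94, 5.54 and 4.31%, and those of IL-4eGFP- cells were at most 0.197%. Members had a median of 4119.5 UMIs and triple-negative cells 3267.5. Of 2222 IL-4eGFP- cells with at least 6 of 8 naive T cell markers (median 3930.5 UMIs), 0.45% held Cxcr5, 0.045% Il21 and 5.45% Bcl6. A lone Bcl6 UMI was thus also found in cells of naive type. These naive-like cells lay in the other library, so they do not measure stray RNA in the library of the members, which was not tested.

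**Figure D1:**
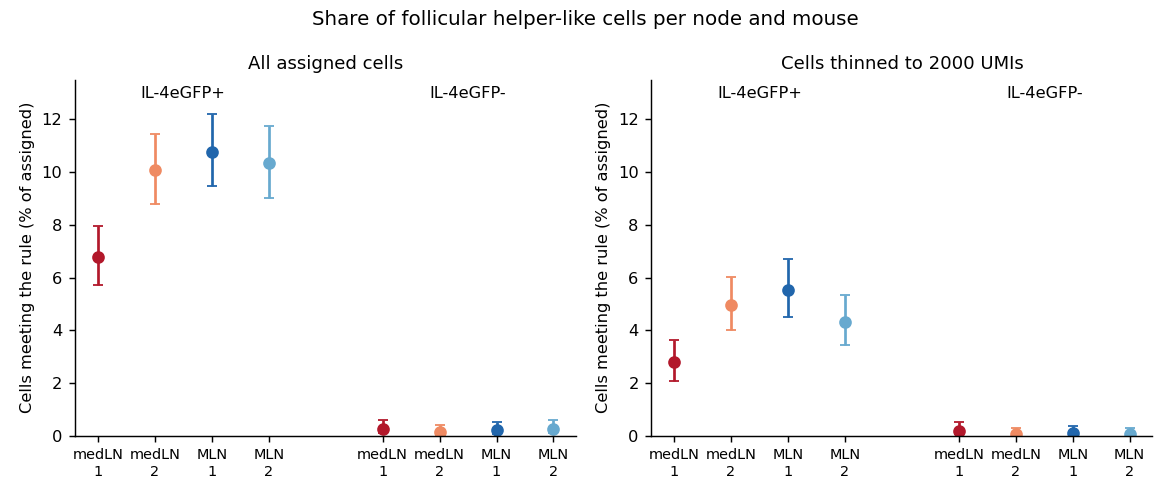
Percent of assigned cells meeting the gene rule in each node and mouse for IL-4eGFP+ and IL-4eGFP- cells, for all assigned cells (left) and for cells thinned to 2000 UMIs (right). Points are samples and bars exact 95% binomial intervals, which cover counting error only. IL-4eGFP+ samples lay between 6.77 and 10.8% at full depth and between 2.78 and 5.54% after thinning, all above the IL-4eGFP- samples.

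To describe what these cells express beyond the rule, the UMIs of the members and of triple-negative cells were summed per sample and compared within samples (edgeR quasi-likelihood test, hashtag sample as block). Of 9942 genes tested, 2204 passed (22.2%), with 1050 higher (10.6%) and 1154 lower (11.6%) in the members. The median log2 fold change over all genes was 0.01. Members were deeper cells, and against triple-negative cells matched on UMIs 1614 genes passed, 1470 of them shared with the full comparison. Members were higher in 20 of 22 genes of the Tfh program. They were lower in all 8 genes that oppose this program or serve egress and in 16 of 17 Th2 effector genes. Of 11 genes of IL-2 receptor signalling, 6 were lower, 1 was higher and 4 did not pass.

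Of 22 Tfh program genes, all passed the filter on low counts, and 20 were higher in the members, none lower, with a median log2 fold change of 1.03. Sostdc1, a secreted inhibitor of Wnt and BMP signalling, stood at 191, 317, 214 and 144 CPM in members against 18.4, 28.8, 20.3 and 16.5 CPM in triple-negative cells. No member sample came near the range of the others (log2 fold change 3.33 ± 0.09 SE, adjusted p = 6.83e-19). Pdcd1, which encodes the inhibitory receptor PD-1, measured 336, 345, 246 and 255 CPM against 49.4, 59.3, 51.6 and 44.5 CPM, and the groups again did not overlap (log2 2.50 ± 0.08, adjusted p = 8.88e-18). The HMG-box factors Tox2 and Tox, which act with BCL6 in Tfh development, were higher by 2.12 and 1.72 log2 units. Ascl2, a basic helix-loop-helix factor that induces CXCR5, was nearly absent from triple-negative cells, at 0.433 to 1.94 CPM, and stood at 29.8 to 72.4 CPM in members. Its log2 fold change was 5.28 ± 0.27.

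Other genes of the list were higher by smaller or similar amounts. Cd200 had log2 ratios of 0.15, -0.012, 0.67 and 0.82 in the 4 samples, so its rise lay mainly in MLN. Maf, a factor driving Il21 and Il4, was 397 ± 25.1 against 178 ± 3.69 CPM (SD, n = 4, log2 1.13). Sh2d1a, the SAP adaptor needed for lasting contact with B cells, was 649 ± 73.1 against 283 ± 15 CPM (log2 1.18). Among receptors that place and hold the cells, S1pr2 was higher by 1.62, Cxcr4 by 1.14 and Btla by 0.93 log2 units. Tcf7, the factor TCF1 that precedes Bcl6 in the lineage, was higher by 0.76, and Id3, which restrains E proteins, by 0.62. The costimulator Icos and the CD40 ligand gene Cd40lg did not pass. Icos was 346, 313, 347 and 356 CPM in members and 406, 428, 332 and 336 CPM in triple-negative cells, so the groups overlapped (log2 -0.15 ± 0.07, adjusted p = 0.144). It passed as lower in the members in 6 of 14 alternatives, among them triple-negative cells matched on UMIs (log2 -0.25, adjusted p = 0.0174), cycling cells left out (log2 -0.25, adjusted p = 0.0401), the top 5% of cells by UMIs left out (log2 -0.33, adjusted p = 7.98e-04), and without MLN 1 or MLN 2 (log2 -0.21 and -0.24).

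Outside that list, the largest rises by the naming rule included Cebpa, a basic leucine zipper factor, at 106, 113, 83.5 and 93.5 CPM in members and 5.99, 7.9, 7.79 and 10.4 CPM in triple-negative cells (log2 3.58 ± 0.14, adjusted p = 4.97e-16). Tigit, an inhibitory receptor, was 428, 374, 405 and 459.5 CPM against 89.9, 94.8, 106 and 116 CPM (log2 2.01 ± 0.07). Every member sample exceeded every triple-negative sample for both genes. Cd160 (2.17), the tubulin gene Tubb2a (2.15) and the syntaxin Stx11 (1.88) completed the 8 largest rises on the log2 scale, beside Sostdc1, Pdcd1 and Tox2. Among 10 inhibitory and costimulatory receptors, 9 were tested and 5 were higher, namely Tigit, Cd28, Cd27, Cd84 and Slamf1. Ctla4 and Lag3 did not pass. Without MLN 1 or without MLN 2, 3 were higher, and Cd84 passed in 6 and Slamf1 in 7 of 14 alternatives.

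All 8 genes that oppose the Tfh fate or lead cells out of the node were lower, with a median log2 fold change of -2.17. Klf2, a factor that drives S1pr1, was 49.2, 71.2, 22.8 and 70.1 CPM in members against 391, 375, 299 and 353 CPM, without overlap (log2 -2.72 ± 0.11, adjusted p = 1.07e-15). S1pr1, the egress receptor for sphingosine-1-phosphate, had a log2 fold change of -1.85, and Ccr7, which holds T cells in the T zone, of -2.16. The values were -2.85 ± 0.19 for Il7r, the IL-7 receptor chain, and -2.18 ± 0.10 for Id2, an inhibitor of E proteins. Prdm1, which encodes the BCL6 antagonist BLIMP-1, was 3.07 ± 3.62 against 11.6 ± 1.77 CPM. Selplg, which encodes the adhesion protein PSGL-1, was 152, 163, 149.9 and 173 CPM against 403, 382, 373 and 443 CPM.

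The cytokine genes divided. Il4 was higher in the members, at 285, 295, 283 and 275 CPM against 128, 154, 131 and 153 CPM, and was nearly the same in the 4 member samples (log2 0.98 ± 0.07, adjusted p = 1.92e-11). An Il4 UMI was found in 57% of members and 34.2% of triple-negative cells, and in 38% against 21.5% at 2000 UMIs per cell. It was found in none of 2222 naive-like IL-4eGFP- cells, which were sorted as negative for the Il4 reporter. Those cells also lay in the other library, so they give no background for Il4 in the members. Il13 was 0, 0.901, 0.949 and 6.45 CPM in members and 171, 191, 44.2 and 183 CPM in triple-negative cells (log2 -5.92 ± 0.23). Only 6 of 774 members held an Il13 UMI, against 170 of 5356 triple-negative cells, and in the latter the 5 highest cells of a sample held 62.8 to 92.5% of its Il13 UMIs. Il5 was not detected in any member, and against a floor of 3 UMIs over all members it was at least 22.3-fold lower. Il4 and Il13 UMIs fell together in 4 members (0.517%) and in 123 triple-negative cells (2.3%).

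Il4 was the only one of 17 Th2 effector genes that was higher in the members, and the other 16 were lower (median log2 -1.70). Adam8 was not lower in every sample, with log2 ratios of 0.33, -0.29, -3.53 and -2.13, so its fall lay in MLN. Gata3, the factor that sets up Th2 cells, was 103, 94.6, 73 and 91.9 CPM against 190.3, 179.6, 203 and 225 CPM, without overlap (log2 -1.17 ± 0.09, adjusted p = 1.26e-10). Il1rl1, the IL-33 receptor, was detected in 0.517% of members and 7.09% of triple-negative cells, and Plac8 had a log2 fold change of -3.53. The cytoskeletal and migration genes Lgals1, S100a6 and Capg were lower, with log2 fold changes of -1.44, -0.89 and -1.70. S100a4 (-0.70) did not pass without the sample block, in thinned cells or with cycling cells left out (adjusted p = 0.279, 0.39 and 0.102). Vim, encoding vimentin, was 248, 159, 55 and 135 CPM against 1221, 1338, 833 and 938 CPM (log2 -2.95 ± 0.10).

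**Figure D2:**
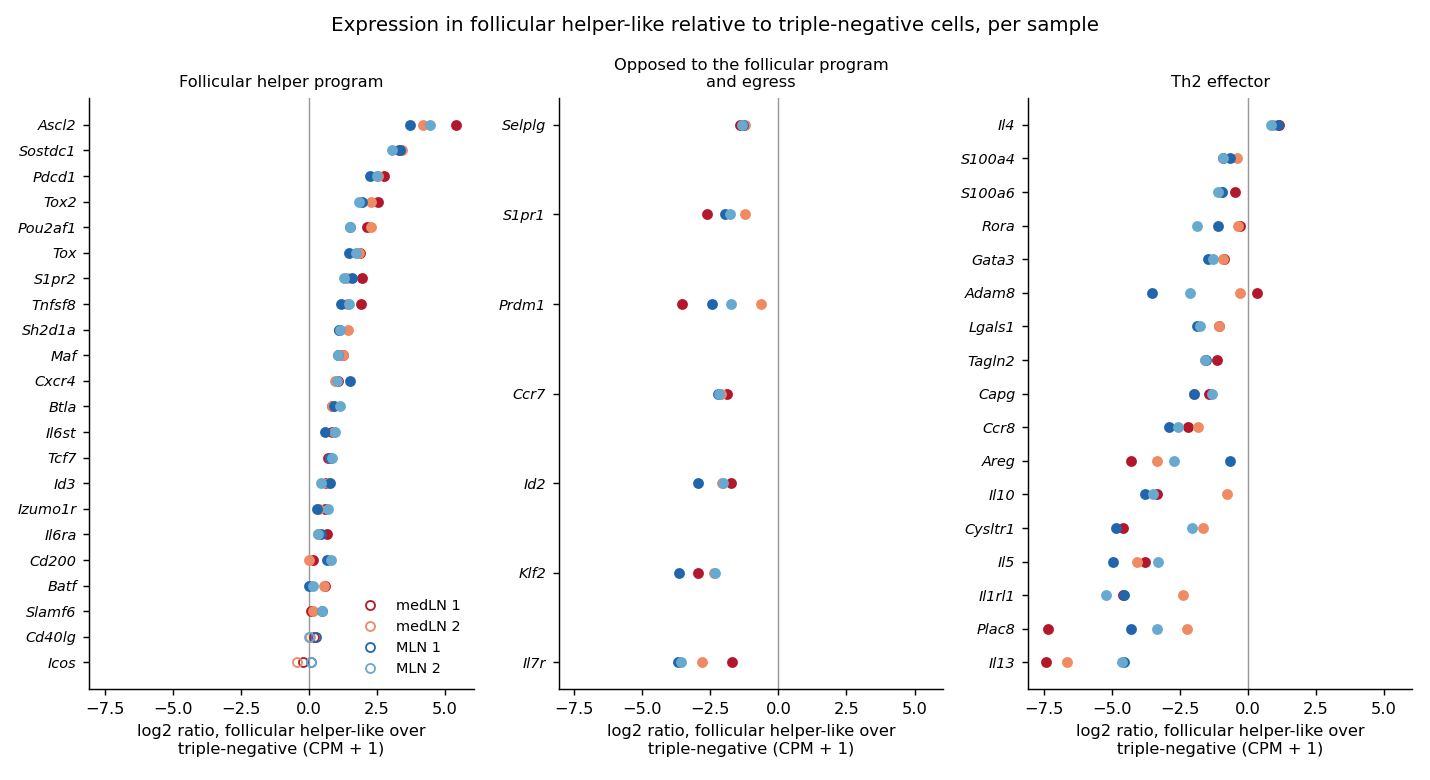
Log2 ratio of summed CPM + 1 in follicular helper-like over triple-negative cells for 3 gene lists. Each point is a sample, filled where the gene passed the edgeR threshold, and the grey line marks equal expression. In the Tfh list 20 of 22 genes are filled and lie to the right, except for Cd200 in medLN 2 (-0.012). The 7 egress and opposing genes shown lie to the left. In the Th2 list Il4 alone passed as higher, and the other genes lie to the left, except for Adam8 in medLN 1 (0.33).

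Homing receptors were mostly lower. Of 9 tested, 7 passed downwards and 1 upwards (median log2 -1.16). The log2 fold change was -3.27 for Ccr2, -2.67 for the gut-homing receptor Ccr9 and -1.75 and -1.35 for the integrin chains Itga4 and Itgb7, while Gpr183, an oxysterol receptor that steers cells to the follicle border, was 330.0, 275, 355 and 324 CPM against 232, 226, 249 and 219.7 CPM. Of 11 genes of IL-2 receptor signalling, 6 were lower and 1, Stat5a, was higher, though not without medLN 1. Over 14 alternatives, between 3 and 7 genes of this list were lower. Il2ra, the high-affinity receptor chain CD25, was 20.3, 3.6, 1.9 and 22.6 CPM against 81.3, 114, 86.6 and 93 CPM. Cish, a STAT5 target, was 2.89, 2.7, 0.949 and 12.9 CPM against 49.4, 72, 50.2 and 49.5 CPM. The members lay below triple-negative cells in every sample for both genes.

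Genes induced early after T cell receptor engagement moved in both directions. Of 15 tested, 6 were higher, 2 lower and 7 did not pass (median log2 0.10). Nr4a1 was 50.7, 55.8, 41.7 and 68.5 CPM against 18, 19.1, 20.1 and 15.4 CPM, without overlap. Nr4a3, Nfkbid, Egr2, Egr3 and Egr1 were also higher, by 2.06, 1.35, 1.00, 0.84 and 0.57, and Dusp5 and Myc were lower. Of 6 E proteins and their partners, Ascl2, Tcf12 and Id3 were higher and Id2 was lower. Among genes of other helper lineages Tnf was higher (1.53) and the regulatory factor Foxp3 lower (-1.85, not past the threshold without MLN 1 or MLN 2), and Tbx21, Ifng, Il17a, Il17f and Il9 were too low to be tested. Of 12 interferon response genes, 4 were lower and 2 higher (median log2 -0.41), with none higher without MLN 1 and 1 without medLN 2 or MLN 2.

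All 10 mitosis genes were lower in the members (median log2 -0.73), as were 7 of 10 S phase genes (median -0.33). Mki67 was 227, 233, 105 and 186 CPM against 340.3, 336, 266 and 277 CPM. The share of cells with cycling transcripts did not follow: 39.5% of members and 30.7% of triple-negative cells were cycling by a rule of 2 mitosis UMIs or 2 S phase genes, and 22.7% and 23.4% at 2000 UMIs per cell. Without medLN 2, 3 S phase genes were lower, and against triple-negative cells matched on UMIs 5 mitosis and 2 S phase genes were. With a sample left out, 9 to 10 mitosis and 3 to 7 S phase genes were lower. Over all 14 alternatives, the lowest count of lower genes was 0 for each of the 2 lists. Among these alternatives is the one without cycling cells, which uses the same 2 lists and so is no test of them.

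The 2 largest falls came from few cells. Jchain and Iglv1, immunoglobulin genes of plasma cells, had 3 UMIs each in all members. In triple-negative cells Jchain had 999, 146, 2572 and 426 UMIs and Iglv1 301, 2206, 244 and 88, so that MLN 1 held most of the first and medLN 2 most of the second. Jchain UMIs were found in 8 to 11 triple-negative cells per sample, and the 5 highest held 96.6 to 99.8% of them. Gzma was spread over more cells, 45 to 259 triple-negative cells per sample, of which the 5 highest held 24.2 to 63.8% of its UMIs. Gzmb and Gzma, granzymes of cytotoxic cells, had log2 fold changes of -5.47 ± 0.24 and -3.04 ± 0.22. Gzma, itself one of the innate-like markers, was 60.4, 61.7, 197 and 664 CPM in triple-negative cells, high in MLN 2. The part of these other cell types in the comparison was not tested. With cells of 2 or more B cell genes or a Foxp3 UMI left out 1937 genes passed, 1805 of them shared with the full comparison, and that filter removes no innate-like or cytotoxic cells as such.

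The Tfh program was graded over the rule. At 2000 UMIs per cell, members held a median of 7 of the 22 program genes, cells with Cxcr5 alone and cells with Bcl6 or Il21 alone 6, and triple-negative cells 4. Cells with at most 3 program genes were 6.91% of members, 10.8% of Cxcr5-only cells, 14% of Bcl6- or Il21-only cells and 36% of triple-negative cells. The 10th and 90th percentiles of the members were 4 and 10 genes, so they overlapped the other classes cell by cell.

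The 986 cells with Cxcr5 alone share the chemokine receptor with the members, and were compared with them in the same way. They were shallower, with a median of 3320 UMIs against 4119.5, and were not matched on UMIs. By the cycling rule 27.3% of them were cycling against 39.5% of members, and 17.7% against 22.7% at 2000 UMIs per cell. The part of depth and cycling in this comparison was not tested. Of 8111 genes tested 345 passed (4.25%), 157 higher (1.94%) and 188 lower (2.32%). Within the Tfh program 10 of 22 genes were higher in the members and 4 were lower (median log2 0.15, all genes 0.00). Without MLN 2, 6 were higher, and without medLN 1 or medLN 2, 2 were lower. Ascl2 was 72.4, 53.1, 32.3 and 29.8 CPM in members and 7.21, 14.6, 7.84 and 11.1 CPM in Cxcr5-only cells (log2 2.04 ± 0.24, adjusted p = 4.54e-06). Pdcd1 was 336, 345, 246 and 255 CPM against 166, 196, 181 and 139 CPM (log2 0.75 ± 0.08). Sostdc1 was 191, 317, 214 and 144 CPM against 90.9, 158, 72.9 and 43.5 CPM (log2 1.29 ± 0.11), higher in each of the 4 pairs, although the member level in MLN 2 lay below the Cxcr5-only level in medLN 2.

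The 4 program genes that were lower in the members than in Cxcr5-only cells were Id3, Izumo1r, Slamf6 and Tcf7. Tcf7 was 698, 712, 729 and 695 CPM against 903, 859.7, 793 and 737 CPM, and Id3 253, 236, 408 and 247 CPM against 300.0, 312, 496 and 438 CPM, lower in every pair (log2 -0.22 ± 0.05 and -0.47 ± 0.08). Id3 did not pass in thinned cells (log2 -0.37, adjusted p = 0.143) or without the sample block (adjusted p = 0.159). Tcf7 passed in 3 of 8 alternatives and Slamf6 in 2, both losing the threshold without medLN 1 and without medLN 2 and Slamf6 also without MLN 2. Tcf7 and Id3 were both lowest in triple-negative cells. All 7 naive or central memory genes tested were lower in the members, including Il7r (-1.51) and Ccr7 (-1.11). With a sample left out 5 to 7 genes of this list were lower, and over all 8 alternatives the lowest count was 1. Il4 was higher, at 285, 295, 283 and 275 against 190.4, 242, 208 and 200.2 CPM (log2 0.42 ± 0.07, adjusted p = 9.26e-04). Gata3 was 103, 94.6, 73 and 91.9 against 85.1, 91.1, 103 and 95 CPM and did not pass. Of 9 Th2 effector genes tested, 3 were higher in the members (Il4, S100a6 at log2 0.47 ± 0.10 and Lgals1 at log2 0.48 ± 0.10) and none was lower. With medLN 1, medLN 2 or MLN 2 left out, Il4 alone was higher. The summed Th2 effector level was 1228 ± 67.7 CPM in Cxcr5-only cells, 1625 ± 302 CPM in the members and 3866 ± 520 CPM in triple-negative cells (SD, n = 4), so both Cxcr5-positive classes lay below triple-negative cells.

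By the naming rule, Padi4, a peptidylarginine deiminase, was the largest rise over Cxcr5-only cells (log2 1.34 ± 0.17), followed by Sostdc1, Stx11 (1.23), Cebpa (1.20) and Marcksl1 (0.90). The largest falls were Rflnb, at 219, 235, 275 and 227 CPM against 446, 411, 442 and 397 CPM (log2 -0.83 ± 0.07), and Pglyrp2, Ripor2, Arid5a and Tent5c, between -0.72 and -0.67. Arid5a passed in 3 of 7 alternatives, and not without medLN 1 or medLN 2. Tent5c passed in 5 of 8, not without MLN 2, and in thinned cells Tent5c and Pglyrp2 came to -0.23 and -0.30 (adjusted p = 0.874 and 0.792). In thinned cells Stx11, Cebpa and Marcksl1 did not pass either. Of 10 S phase genes 4 were higher in the members and none lower. Without medLN 1 this was 1 gene, without medLN 2 or MLN 2 it was 2, and without MLN 1 it was 6. Over all 8 alternatives the lowest count of higher S phase genes was 0. Moreover, the inhibitory receptors Ctla4 (0.58), Lag3 (0.78) and Tigit (0.37) were higher, but neither Ctla4 nor Lag3 passed without the sample block. Without the sample block 121 genes passed, and with DESeq2 67. Members of this comparison and of the previous one are the same cells, so the 2 results are not independent.

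**Figure D3:**
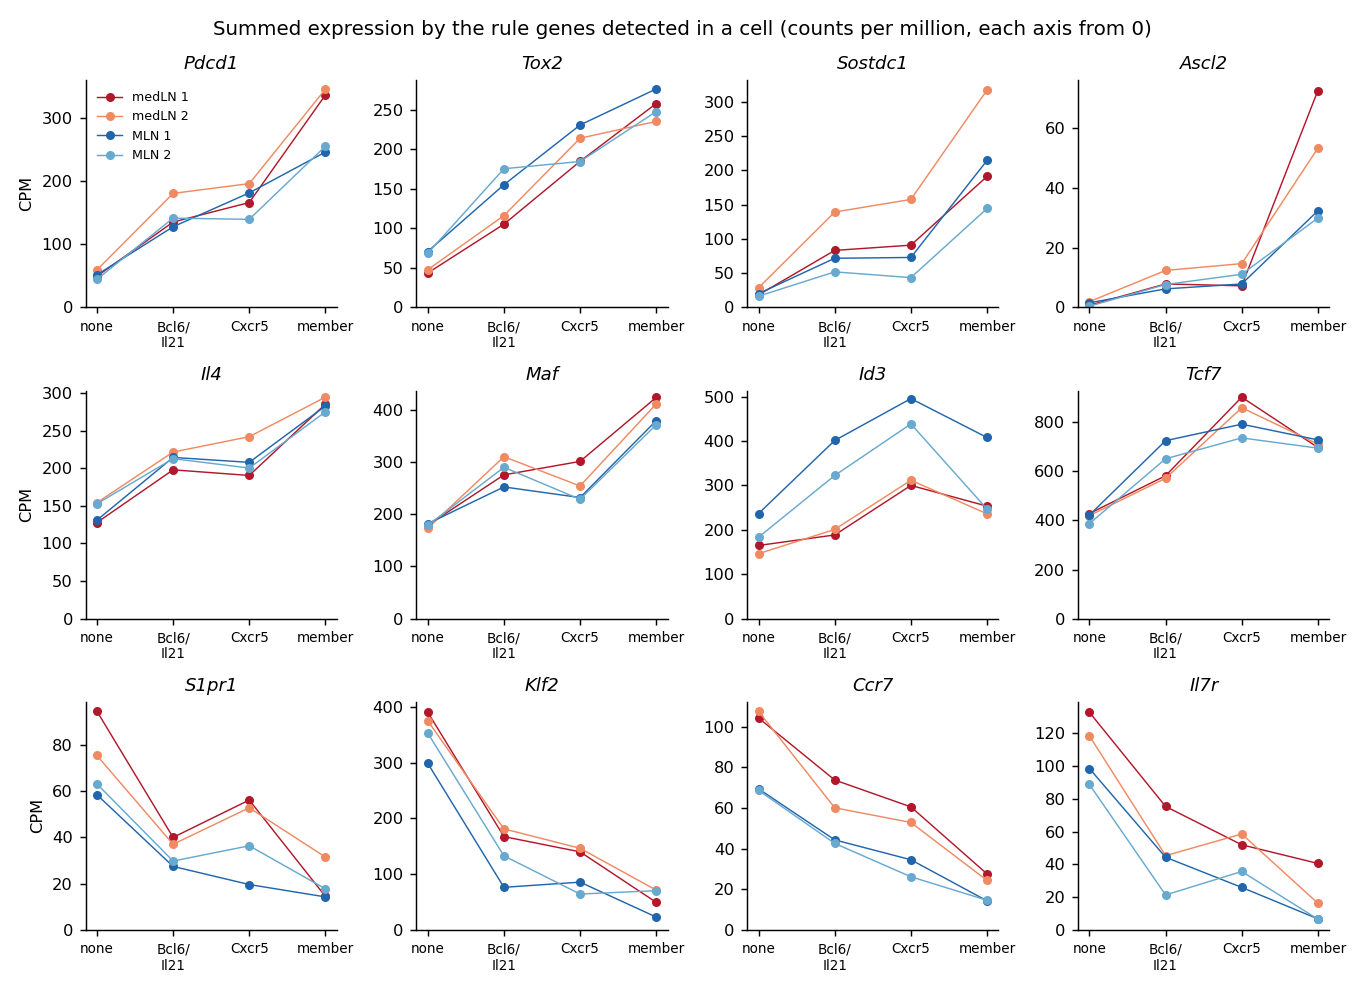
Summed CPM of 12 genes in cells with none of the 3 rule genes, with Bcl6 or Il21 only, with Cxcr5 only, and in members, 1 line per sample and each axis starting at 0. Pdcd1, Sostdc1, Ascl2 and Il4 are highest in members, Id3 and Tcf7 lie lower in members than in Cxcr5-only cells of the same sample, and S1pr1, Ccr7 and Il7r are lowest in members.

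The lung-draining medLN and the gut-draining MLN were then compared within the members, 140 and 210 cells against 216 and 208. Of 8225 genes tested, 37 passed (0.45%), 28 higher (0.34%) and 9 lower (0.109%) in medLN. With cycling cells left out 10 were higher and 9 lower, and 11 of these 19 were among the 37. Since medLN and MLN samples of the same number come from the same mouse, the mouse was also fitted as a block, and 109 genes then passed, 85 higher and 24 lower. None of the 22 Tfh program genes passed without the block (median log2 0.09), whereas with it 5 were higher and 1 was lower in medLN. Pdcd1 was 336 and 345 CPM in medLN and 246 and 255 CPM in MLN (log2 0.43 ± 0.11, adjusted p = 0.0749), without overlap but short of the threshold. With the mouse as block Pdcd1 passed (log2 0.43, adjusted p = 0.0106), and so did Id3, lower in medLN (log2 -0.38, adjusted p = 0.04). Pdcd1 passed in 4 and Id3 in 3 of 13 alternatives. Il4 was 285 and 295 CPM and 283 and 275 CPM (log2 0.04 ± 0.11).

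The clearest difference lay in Itgb1, the integrin β1 chain through which T cells bind fibronectin and VCAM-1. It measured 408 and 216 CPM in medLN and 56 and 46.8 CPM in MLN (log2 2.54 ± 0.22, adjusted p = 2.82e-08). Of the 8 largest rises it alone passed under all 13 alternatives. When a sample is left out of the comparison of nodes, its node keeps a single sample and the spread comes from the other node alone. S100a4, a calcium-binding protein of motile cells, was 52.1 and 63 CPM and 21.8 and 15.3 CPM (log2 1.65 ± 0.26, adjusted p = 8.07e-04). Il7r was 40.5 and 16.2 CPM and 6.64 and 6.45 CPM (log2 1.95 ± 0.45, adjusted p = 0.0427). S100a4 did not pass with DESeq2 (adjusted p = 0.194), without medLN 1 (0.23) or without medLN 2 (0.932), and Il7r passed in 4 of 11 alternatives, not without medLN 1, medLN 2 or MLN 1. The nodes did not overlap in any of these genes.

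Other genes higher in medLN members were Angptl2 (1.23), Emp3 (1.00), Vim (1.00), Anxa2 (0.94), Ctsz (0.77) and the histone gene H2afx, at 266 and 267 CPM and 123 and 162 CPM. The mitosis genes Ccnb2 (1.12) and Cenpf (1.60) were 2 of 10 that passed, with a list median of 0.75 (all genes 0.00). None passed without medLN 1 or without medLN 2, 1 without MLN 1, and 9 without MLN 2. The share of cycling members at 2000 UMIs was 23.5 and 23.4% in medLN and 20.7 and 23.6% in MLN. Angptl2 and H2afx passed in 8 of 13 alternatives, Emp3 in 5 and Ctsz in 6 of 13, Vim in 5 and Anxa2 in 6 of 12, and Ccnb2 in 6 and Cenpf in 7 of 11. None of these 8 passed without medLN 1 or without medLN 2, and without MLN 1 Angptl2, H2afx and Cenpf alone did. Anxa2 turned to a log2 fold change of -0.16 once cycling cells were left out.

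Among the 9 genes lower in medLN members were Cd74 and H2-Aa, both on the list of B cell markers. Cd74, the MHC class II invariant chain of B cells and other presenting cells, was 40.5 and 29.7 CPM in medLN and 134 and 106 CPM in MLN (log2 -1.82 ± 0.20, adjusted p = 5.89e-06), and H2-Aa was 1.45 and 3.6 CPM and 37.9 and 17.7 CPM. The summed B cell markers of the members were 243 and 234 CPM in medLN and 405 and 338 CPM in MLN, in the same direction. With cells of 2 or more B cell genes or a Foxp3 UMI left out 9 genes passed. That filter uses Cd74 and H2-Aa themselves and so is no test of them. Without medLN 1 or without medLN 2, Cd74 did not pass (log2 -2.03 and -1.57, adjusted p = 0.0985 and 0.749), nor did H2-Aa, which did not pass without MLN 1 either. Gimap7, a small GTPase of lymphocytes, was 73.8 and 74.8 CPM and 135 and 146 CPM (log2 -0.93 ± 0.16), and it too did not pass without medLN 1 or medLN 2. Without medLN 1, 2 genes passed and without medLN 2, 3, whereas 129 passed without MLN 2.

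Several of these differences also stood in triple-negative cells. In those cells, from the same nodes and libraries, 75 of 10816 genes passed (0.693%), 33 higher (0.305%) and 42 lower (0.388%) in medLN. Itgb1 differed by 1.84 ± 0.16 there, S100a4 by 1.49 ± 0.11 and Gimap7 by -0.97 ± 0.10, all past the threshold. Ccr9, the receptor for the gut chemokine CCL25, differed by -2.75 ± 0.25 in triple-negative cells, at 14.8 and 17.9 CPM in medLN and 80.9 and 137 CPM in MLN. In members it was 0 and 6.3 CPM and 9.49 and 22.6 CPM, and did not pass (log2 -2.08 ± 0.63, adjusted p = 0.212). It passed with the mouse as block (log2 -2.20, adjusted p = 0.00841), without the filter on low counts (log2 -2.09, adjusted p = 0.0114) and without MLN 1 (log2 -2.55, adjusted p = 0.0361).

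Whether the node difference of the members differed from that of triple-negative cells was tested directly with an interaction term. Of 9942 genes 26 passed (0.262%), 19 upwards (0.191%) and 7 downwards (0.0704%). Itgb1 (0.68 ± 0.18, adjusted p = 0.114) and S100a4 (0.18 ± 0.30, adjusted p = 0.98) did not pass. Lgals3, encoding galectin-3, passed with 2.64 ± 0.42: members were at 111 and 36 CPM in medLN and 6.64 and 7.26 CPM in MLN, and triple-negative cells at 102 and 82.7 CPM and 34.8 and 82.4 CPM. Lgmn, a lysosomal protease, went opposite ways, at 66.6 and 68.5 and 43.6 and 42.7 CPM in members and 48.1 and 48 and 79.3 and 152 CPM in triple-negative cells (interaction 1.92 ± 0.25, adjusted p = 1.05e-05). Icos was the only Tfh program gene to pass (-0.44 ± 0.10, adjusted p = 0.0457), and with DESeq2 3 genes passed in all. Without medLN 1, 5 genes passed, and without medLN 2, 4.

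**Figure D4:**
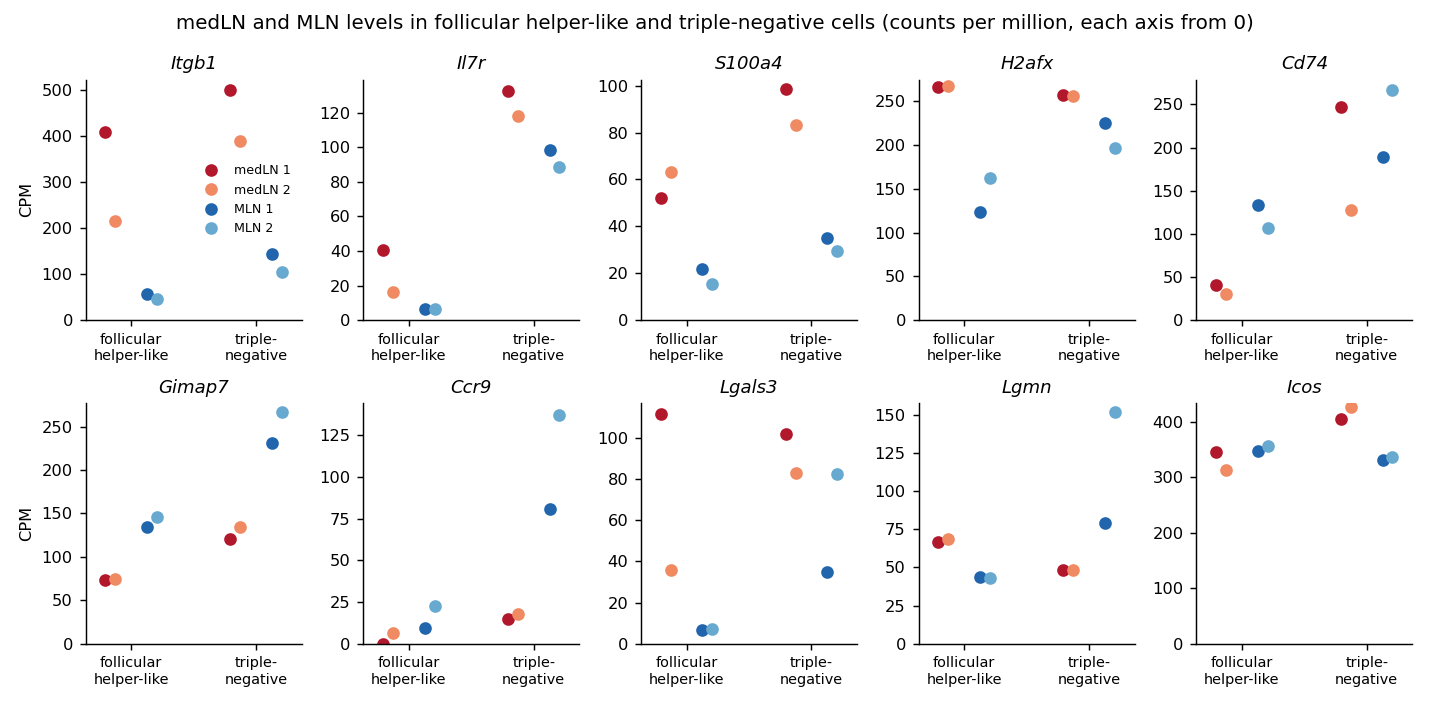
Summed CPM of 10 genes in medLN and MLN for follicular helper-like and triple-negative cells, 1 point per sample, each axis starting at 0. Itgb1 and S100a4 are higher in medLN in both kinds of cell, Gimap7 is lower in both, and for Cd74 the nodes do not overlap among members but do among triple-negative cells.

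Members were also split by the cytokine of the rule. The 284 members with an Il21 UMI (median 4489 UMIs) were compared with the 490 without (median 3960 UMIs), who all carry Bcl6 by construction. Of 6179 genes tested 23 passed (0.372%), 15 higher (0.243%) and 8 lower (0.129%). Members with Il21 were higher in Il1r2, the decoy receptor for IL-1, at 92.2, 83.5, 133 and 135 CPM against 32.7, 24.4, 30.7 and 43.6 CPM (log2 1.74 ± 0.19, adjusted p = 5.48e-04). Nr4a1, an early response gene of the T cell receptor, was 82, 102, 73.1 and 109 CPM against 27.6, 32.5, 24.8 and 25.1 CPM (log2 1.71 ± 0.21, adjusted p = 9.03e-04). Neither gene overlapped between the groups, and both passed under each alternative in which they were tested.

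Cebpa (1.22), Stx11 (0.91) and Tnfrsf4, the costimulator OX40 (0.85), were higher with Il21, and so was Egr1 (0.79). Of 10 early T cell receptor genes tested 3 were higher and none lower (median log2 0.82). In the Tfh program only Tox passed (0.61), with a median of 0.25 over the list. Pdcd1 (0.46 ± 0.11, adjusted p = 0.122), Maf (0.42 ± 0.10, adjusted p = 0.126) and Il4 (0.31 ± 0.15, adjusted p = 0.483) did not pass. In thinned cells all 3 did (log2 0.87, 0.79 and 0.69, adjusted p = 0.00379, 0.0125 and 0.045), and without the filter on low counts Pdcd1 and Maf did. The thinned split is not one of the same cells, since the rule was applied anew to the thinned counts. It left 24 to 29 cells with Il21 per sample, and p-values were adjusted over 842 genes instead of 6179. Tox passed in 2 of 8 alternatives but lost the threshold whichever sample was left out, and Egr1 did not pass without medLN 2 or without MLN 1. Rflnb was lower with Il21, at 119.5, 116, 182 and 138 CPM against 291, 295, 326 and 323 CPM (log2 -1.19 ± 0.13), as were Cd74 (-2.19), Rasgrp1 (-0.86), Pdcd4 (-0.85) and Gramd1a (-0.73). Stx11, Rasgrp1 and Gramd1a lost the threshold under each single sample left out. Pdcd4 lost it without medLN 2, MLN 1 or MLN 2, Cebpa without medLN 2 or MLN 1, and Tnfrsf4 and Cd74 without MLN 1 or MLN 2.

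**Figure D5:**
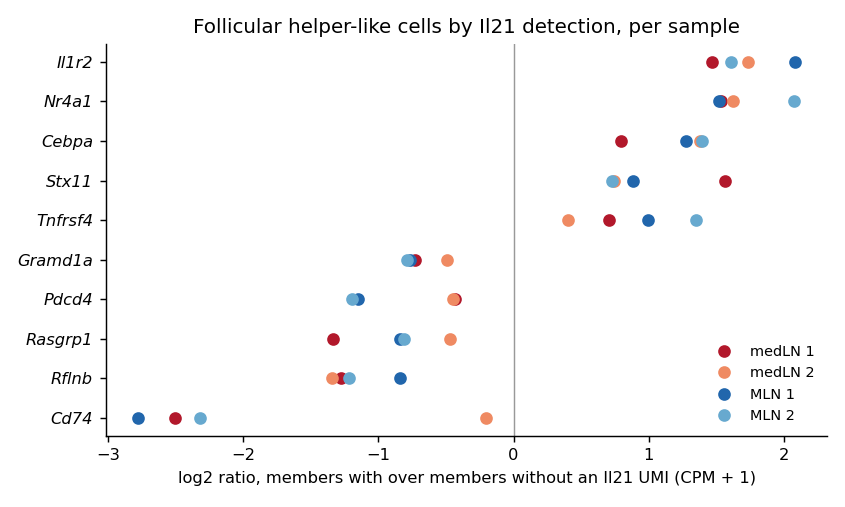
Log2 ratio of summed CPM + 1 in members with over members without an Il21 UMI, for the 5 largest rises and 5 largest falls, 1 point per sample, with the grey line at equal expression. All 4 samples of each gene lie on the same side of the line, and Cd74 in medLN 2 lies closest to it.

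The 20 IL-4eGFP- cells that met the rule had another makeup. Il4, Sostdc1 and Tigit were not detected in any of them, against 428, 374, 405 and 459.5 CPM of Tigit in the IL-4eGFP+ members. Against a floor of 3 UMIs over these cells, Tigit was at least 14.9-fold, Il4 at least 10.1-fold and Sostdc1 at least 7.75-fold higher in the IL-4eGFP+ members. The IL-4eGFP- cells were sorted as negative for the Il4 reporter, so their Il4 value describes the sort and is no test. Cd3e was detected in 16 and the B cell gene Cd79a in 4 of the 20 cells, and their B cell markers summed to between 3291 and 15141 CPM per sample. Of 5080 genes tested 113 passed (2.22%), 87 higher (1.71%) and 26 lower (0.512%) in IL-4eGFP+ members, with a median log2 fold change of 0.26 over all genes. DESeq2 gave 14 higher and 21 lower. Cd79a, H2-Eb1, Blnk, Cd79b and H2-Aa were the largest falls. Each IL-4eGFP- sum rested on 3 to 6 cells and 16511 to 47157 UMIs.

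The same rule was applied to the separate run of lung and MLN IL-4eGFP+ cells from 2 other infected reporter mice, 13 weeks old, where each organ was its own library without hashtags. The rule was met by 286 of 2810 cells (10.2%) in MLN 1 and 91 of 899 (10.1%) in MLN 2, but by 2 of 1605 lung cells of mouse 1 (0.125%) and 0 of 624 of mouse 2, which allows a share of up to 0.589% (exact upper limit). The 8 largest rises of the node run were higher in members than in triple-negative cells in both MLN libraries, and 6 of the 8 largest falls were lower in both. Of 20 Tfh program genes higher in the node run, 19 were higher in both. Pdcd1 was 418 and 345 CPM in members against 97.4 and 90.8 CPM in triple-negative cells, and Il4 was 505 and 395 against 311 and 272 CPM. Itgb1 was 90.9 and 76 CPM against 168 and 183 CPM. S100a4, lower in the members of the node run, was higher in those of both MLN libraries, at 15 and 15.2 CPM against 7.59 and 7.45 CPM. These libraries gave values only, with no test, and the MLN in both runs was chosen by the same genes.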

How the data were processed

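CD4+ cells of medLN and MLN were measured as IL-4eGFP+ and IL-4eGFP- libraries with hashtag antibodies. The authors made the deposited UMI counts with Cell Ranger (version 6.1.2 for the node run, 2.1.1 and 3.0.1 for the lung and MLN run, per the submitters' processing notes) on mm10, and the counts are not normalized. Cells with over 500 UMIs, over 500 genes and under 7% mitochondrial UMIs were kept, and a cell was assigned where its top hashtag held at least 80% of hashtag UMIs and at least 10 UMIs. Scrublet called 0 doublets and so did not work here. T cell receptor genes were left out of sums and of CPM (counts scaled to a sum of 1e6 remaining UMIs). The sums of the members held 690868, 1110286, 1054083 and 1240350 UMIs, and those of triple-negative cells 5774678 to 6927612.

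Sums per hashtag sample were compared with edgeR 4.0.16 (quasi-likelihood test, Benjamini-Hochberg adjustment over all genes tested, threshold 0.05, R 4.3.3), with the hashtag sample as block where classes were compared. DESeq2 1.42.0, other filters, thinned cells and left-out samples were alternatives. In the thinned alternative of these fits, the classes were assigned anew on the thinned counts. The members then were 50, 91, 97 and 79 cells, with 100000 to 194000 UMIs per sum. Triple-negative sums took in cells that held a rule gene only at full depth. That setting therefore does not compare the same cells at equal depth. Fits were tested on simulated data. Members, gene lists and tests were chosen with earlier results of these data known. Named were genes past the threshold with a mean of at least 50 CPM and 1 direction in every pair (for nodes, without overlap), the 8 largest rises and falls in the first comparison and between nodes and 5 otherwise, without ribosomal protein, mitochondrial, Gm and Rik genes, plus the fixed lists. Labels place medLN and MLN of a number in the same mouse. The deviations of the paired samples correlated with r = 0.0705 over 3180 genes, which are not independent replicates. Hashtag sequences came from the deposited sample descriptions and promoters from RefSeq. Some genes of the fixed lists are counted but not reported here by name. Intervals and floors cover counting error only.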

Additional observations from a re-analysis of the deposited data

Results flagged for a closer look

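Of 41 genes checked for a sample far from the other 3 in the log2 ratio of members over triple-negative cells, 4 were found. How many chance alone would give was not measured. Cd160 had its outlying ratio of 3.59 in medLN 1, and Tigit its ratio of 2.24 in the same sample. In medLN 2 the outlying ratios were 1.43 for Sh2d1a and -0.80 for Gzma.

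The node difference (medLN over MLN, log2) of the members differed from that of triple-negative cells by the interaction term for Lgals3 (2.64), Gzma (2.16), Lgmn (1.92), the mitosis genes Cenpf (1.48) and Cdc20 (1.22), Cd74 (-1.43) and Icos (-0.44). Of 6 alternatives, Lgmn passed in 5, Lgals3 and Gzma in 4, Cd74 in 3, Cenpf and Cdc20 in 2 and Icos in 1. Without medLN 2, Gzma came to 0.17 (adjusted p = 0.986), and Lgals3 did not pass without medLN 1 (1.90, adjusted p = 0.291).

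IL-4eGFP+ cells with no assigned hashtag entered no comparison, and 234 of these 1213 cells met the gene rule (19.3%, exact 95% interval 17.1 to 21.6%). Their median was 8434 UMIs, above the 4119.5 of the members, and the part of depth or of cell doublets in this share was not tested.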

How the results depend on the processing

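Of the values of single genes under an alternative, 1574 kept their direction and side of the threshold, 231 lost the threshold, 27 gained it and 38 turned. With cycling cells left out Anxa2 between nodes (log2 -0.16) and Cd84 against triple-negative cells (-0.0428) turned, and both had passed. The others passed in neither setting. Against triple-negative cells, these were Cd40lg (-0.0185 with cells matched on UMIs, -0.159 without cycling cells, -0.0676 without the top 5% of cells by UMIs), Ctla4 (-0.0187 in thinned cells, -0.249 and -0.111 in the last 2 settings) and Lag3 (-0.0127 without the filter, -0.0157 with hashtags at 90%, -0.121 with matched cells, -0.220 without cycling cells, -0.128 without the top 5%, and -0.0910 to 0.178 with a sample left out). Between nodes, these were Il4 (-0.316 in thinned cells, -0.0383 without cells of B cell genes or Foxp3, -0.00942 without the top 5% of cells by UMIs), Tox2 (0.0396 in thinned cells, 0.0441 without cycling cells) and Icos (0.0535 without cycling cells). In the Il21 split Icos was 0.0512 in thinned cells, and between gates Id3 was -0.0803 with DESeq2. The others turned with a sample left out. In the interaction the log2 values then ran from -0.0921 to 0.185 for Il4, -0.139 to 0.215 for Id3, -6.02 to 1.25 for Ccr9 and -0.114 to 0.404 for S100a4. Against Cxcr5-only cells they ran from -0.380 to 0.0594 for Itgb1, -0.173 to 0.0521 for Gata3 and -0.0333 to 0.0977 for Icos. In the Il21 split they ran from -0.111 to 0.137 for Tox2, -0.129 to 0.762 for S100a4 and -0.199 to 0.117 for Gata3, and between gates from -0.318 to 0.473 for Id3. The 2204 genes that separated members from triple-negative cells became 1212 with DESeq2, 689 in thinned cells, 1036 with cycling cells left out and 1708 to 1863 with a sample left out. Thinned fits assigned the classes anew and kept 50 to 97 members per sample, so depth, class and number of cells changed together. The share of higher calls moved from 47.6% to 35.7% without the filter on low counts. The 37 genes between nodes became 109 with the mouse as replicate block, 7 with DESeq2, 103 without the filter, 2 in thinned cells, 19 without cycling cells, 9 without cells of B cell genes or Foxp3, and 2 to 129 with a sample left out. The 26 interaction genes became 3 with DESeq2, 57 without the filter and 4 to 61 with a sample left out. Against Cxcr5-only cells, 345 genes became 121 without the sample block, 67 with DESeq2, 46 in thinned cells and 166 to 334 with a sample left out. The 23 genes of the Il21 split became 12 without the block, 10 with DESeq2, 142 without the filter, 36 in thinned cells and 5 to 31 with a sample left out. Between gates, 113 genes became 35 with DESeq2 (14 higher, 21 lower), 222 without the filter and 60 to 100 with a sample left out. The mean share of 9.49% fell to 4.39% in thinned cells. The causes were not tested. Scrublet called no cell, so leaving out its calls gave no other value, and adjusted p-values that DESeq2 did not give are not counted. The sample block against none moved the first comparison to 1886. Depth limits genes near 1 UMI per sum, and the IL-4eGFP- sums in particular.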

Other observations

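Cells with Cxcr5 alone made up 12.1% of assigned IL-4eGFP+ cells, cells with Bcl6 alone 10.2% and cells with Il21 alone 1.97%. Of IL-4eGFP- cells, 1.67% had Cxcr5 alone and 5.93% Bcl6 alone. In the lung of the separate run Cxcr5 alone was found in 2.18 and 1.44% of IL-4eGFP+ cells, and in its MLN in 28.5 and 23.2%, at medians of 4315 to 5509 UMIs in such cells.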
